A study of Mus musculus with 18 samples.

Results

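The genes described here are the neighbours of Mcph1 on mouse chromosome 8. They were chosen as genes of any type that overlap chromosome 8 from 13595131 to 23803189 (GRCm38), which is Mcph1 and 5 Mb on either side, without Mcph1 itself, and that had a summed count of at least 50 over the 16 cortex libraries. Of the 54281 genes in the deposited table, 246 lay in the window, 114 had at least 1 count in cortex and 60 met the minimum. The members nearest to that minimum were 1700041G16Rik with a summed count of 52 and B230112G18Rik with 62, and the genes just under it were Gm45412 with 48 and Gm45754 with 47. The 60 members comprised 42 protein-coding genes, 9 pseudogenes, 6 transcripts annotated as still to be experimentally checked, 1 sense intronic transcript, 1 lincRNA and 1 antisense RNA. Angpt2 lay inside Mcph1, 18 members lay at lower and 41 at higher coordinates.

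The study measured RNA from cerebral cortex of male C57BL/6J mice by bulk sequencing at the stages labelled E17.5, P4, A6w and A18w, in wild-type (WT) mice and in mice whose genotype is given as Mcph1 knockout (Mcph1KO). The title of the series calls these mice a microcephaly model. The series also holds wild-type R1 mouse embryonic stem cells, and there were 2 libraries in every one of its 9 groups. The labels give no allele design, and they do not say whether each library came from a separate animal, so p-values measure the spread between libraries, which may be technical.

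Mcph1 encodes microcephalin, a protein that restrains chromosome condensation and takes part in the DNA damage response, and its loss causes small brain size. The stretch around Mcph1 is also known for its clusters of defensin genes, which encode small antimicrobial peptides, and for duplicated segments whose copies are nearly identical in sequence. Such copies are difficult to count apart from each other with short reads.

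The count of Mcph1 itself did not drop with the knockout label. In libraries labelled Mcph1KO it stood at 12.2 and 13.2 CPM (counts scaled to a common library size with edgeR's TMM factors) against 12.5 and 10.1 in WT at E17.5. The values were 14.7 and 13.4 against 12.3 and 10.7 at P4, and 16.2 and 16.6 against 9.66 and 9.02 at A6w. At A18w they were 13.9 and 11.7 against 8.36 and 9.72. The groups overlapped at E17.5, and at P4, A6w and A18w the count was higher without overlap. Averaged over the stages it was 0.44 higher on the log2 scale (SE 0.09), with an adjusted p of 0.368 by edgeR's quasi-likelihood test. Gene counts cannot show whether the RNA lacked an exon, and the groups are therefore called by their labels below.

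Total counts ran from 23531045 to 32041849 per library. The 7 markers of cortical projection neurons were all counted in every cortex group, with summed levels of 1161 to 2694 CPM against 4.35 to 17 CPM in stem cells, where Neurod6 was at 0. The 4 pluripotency markers summed to 3779 and 4059 CPM in stem cells. The 4 markers of thalamus and hypothalamus stood at 39.1 and 43.9 CPM in the E17.5 libraries numbered 1 and at 225 and 167 CPM in those numbered 2, in WT and in libraries labelled Mcph1KO respectively. The 5 choroid plexus markers varied from 5.25 to 955 CPM among cortex libraries. In bulk tissue, fewer cells of a type and less RNA per cell cannot be told apart.

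None of the defensin genes entered the description. The window held 65 of them, 55 had no cortex count at all, and the highest summed count of any was 39 over the 16 libraries.

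The member called between genotypes, and 4 of the 5 whose groups were apart at all 4 stages, were copies of a part of Cdh11, the gene of cadherin 11, a calcium-dependent cell adhesion protein. Cdh11 lies far outside the window at chr8:102632095-102785642. The 6 copies are annotated as pseudogenes and lie 0.879 to 1.764 Mb from Mcph1 on its higher-coordinate side. They are, in order, Gm6483 (chr8:19682449-19697736), Gm40466 (chr8:20001099-20008736), Gm21811 (chr8:20136502-20151665), 6820431F20Rik (chr8:20262613-20297432), 2610005L07Rik (chr8:20385782-20424814) and Gm21092 (chr8:20567597-20582771). Over their aligned bases the copies were 92.8% (Gm40466) to 96.9% (Gm6483) identical to the Cdh11 mRNA. For each copy 1 transcript was aligned. In 6820431F20Rik 871 bases aligned, beside 5006 exon bases of the gene. The values were 943 beside 4163 in 2610005L07Rik and 221 beside 422 in Gm40466.

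The stretch of 120 bases below lies in the coding sequence of Cdh11 and is shown because it makes plain how alike the copies are. It comes from the GENCODE M21 transcripts of GRCm38, each in the direction of its transcript, and capitals mark the bases that differ from Cdh11. Gm40466 holds no match to this exon.
Cdh11, chr8:102673987-102674106, minus strand: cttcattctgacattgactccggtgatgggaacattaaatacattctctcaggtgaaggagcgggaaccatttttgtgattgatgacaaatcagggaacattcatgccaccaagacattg
6820431F20Rik, chr8:20278051-20278170, minus strand: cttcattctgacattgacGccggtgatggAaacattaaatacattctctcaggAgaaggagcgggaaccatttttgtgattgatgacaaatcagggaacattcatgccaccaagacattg
2610005L07Rik, chr8:20405300-20405419, minus strand: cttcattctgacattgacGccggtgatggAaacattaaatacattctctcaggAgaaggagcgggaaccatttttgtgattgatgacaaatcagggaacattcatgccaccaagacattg
Gm21811, chr8:20141597-20141716, plus strand: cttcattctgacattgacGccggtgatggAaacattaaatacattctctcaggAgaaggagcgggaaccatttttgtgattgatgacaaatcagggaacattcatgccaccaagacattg
Gm21092, chr8:20572739-20572858, plus strand: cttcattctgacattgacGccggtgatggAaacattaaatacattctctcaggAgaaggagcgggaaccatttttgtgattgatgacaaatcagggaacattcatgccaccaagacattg
Gm6483, chr8:19687604-19687723, plus strand: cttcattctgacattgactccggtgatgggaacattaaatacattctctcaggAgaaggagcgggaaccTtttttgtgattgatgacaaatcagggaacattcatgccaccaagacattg

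6820431F20Rik, 2610005L07Rik, Gm21811 and Gm21092 had the same 120 bases and differed from Cdh11 at 3 positions, and Gm6483 differed from Cdh11 at 2 positions and from the other copies at 3. A read that falls wholly in this stretch cannot be assigned to 1 of the copies that have the same bases there. Of all distinct words of 31 bases in its transcripts, Gm21811 shared 95% with other genes, Gm21092 93.3%, Gm6483 64.5%, 2610005L07Rik 33.4%, 6820431F20Rik 24.5% and Gm40466 21.9%. The estimated counts of the copies are therefore uncertain as values of single genes, least so for 6820431F20Rik, 2610005L07Rik and Gm40466, most of whose words were their own.

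6820431F20Rik was the copy with the most counts and the only member that edgeR called in a genotype comparison. At E17.5 it stood at 539 and 477 CPM in the libraries labelled Mcph1KO and at 336 and 301 CPM in WT. At P4 the values were 694 and 754 against 417 and 402 CPM, at A6w 165 and 175 against 119 and 103 CPM, and at A18w 158 and 176 against 101 and 138 CPM. All 8 libraries labelled Mcph1KO lay above both WT libraries of their stage. Averaged over the stages the difference was 0.65 on the log2 scale (SE 0.08, adjusted p = 0.00939 by edgeR's quasi-likelihood test with Benjamini-Hochberg adjustment over 19199 genes). Across all genes, 0.0521% were called in that averaged comparison.

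The call rested on all stages together. At single stages the log2 difference of 6820431F20Rik was 0.67 at E17.5 (SE 0.16), 0.82 at P4 (SE 0.16), 0.61 at A6w (SE 0.16) and 0.48 at A18w (SE 0.16), with edgeR adjusted p from 0.898 to 1. The call held in each of the 16 fits that left out 1 library, with adjusted p up to 0.0482. It was lost at the same size of difference when stem cells joined the edgeR fit (0.65, adjusted p = 0.148) and when both E17.5 libraries numbered 1 were left out (0.64, adjusted p = 0.0955).

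2610005L07Rik, the second most numerous copy, had the same order of libraries. It stood at 172 and 117 against 113 and 85.3 CPM at E17.5, 160 and 136 against 66.1 and 81.5 at P4, 40.5 and 46.9 against 37.2 and 34.8 at A6w, and 29.9 and 45.9 against 25.6 and 28.4 at A18w, in libraries labelled Mcph1KO and WT respectively. The groups did not overlap at any stage, and the averaged log2 difference was 0.58 (SE 0.12), short of the threshold in edgeR (adjusted p = 0.295) and past it in DESeq2 (adjusted p = 0.00654). Gm40466, the copy with the fewest counts, was at 1.17 and 1.56 against 0.148 and 0.24 CPM at P4. Its averaged difference was 1.39 (SE 0.29, edgeR adjusted p = 0.321), again with no overlap at any stage.

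Gm21092 had the opposite order. Its values in libraries labelled Mcph1KO and in WT averaged 3.36 against 6.66 CPM at E17.5, 3.67 against 6.62 at P4, 0.963 against 1.85 at A6w and 0.634 against 1.07 at A18w. All 8 libraries labelled Mcph1KO lay below both WT libraries of their stage, and the averaged log2 difference was -0.88 (SE 0.16, edgeR adjusted p = 0.188, DESeq2 adjusted p = 0.0145). Gm6483 averaged 1.38 against 2.78 CPM at E17.5 and 0.495 against 1.41 at A6w, with an averaged difference of -1.17 (SE 0.32, edgeR adjusted p = 1). Its groups did not overlap at E17.5, P4 and A6w and overlapped at A18w. Gm21811, which shares nearly all of its words with the other copies, had an averaged difference of 0.11 (SE 0.19) and groups that overlapped at every stage.

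The sum of the 6 copies does not depend on how reads were divided among these 6. It was 664 ± 83.1 CPM (SD, n = 2) in libraries labelled Mcph1KO and 433 ± 47.9 in WT at E17.5, a ratio of 1.53. The ratio was 1.78 at P4, 1.43 at A6w and 1.38 at A18w, and at each stage the libraries labelled Mcph1KO lay above those of WT. 6820431F20Rik made up 72.6% to 82.2% of the sum in the group means, so the sum mostly restates that copy. The 4 smaller copies together had ratios of 0.78, 0.886, 0.736 and 0.77, with the libraries labelled Mcph1KO below WT at E17.5, A6w and A18w and overlapping at P4. With Cdh11 and the copies Gm3365 and Gm10557 outside the window added, the ratios were 1.46, 1.68, 1.25 and 1.25.

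Cdh11 itself was not called, and its groups overlapped at every stage. It stood at 65.4 and 73.7 CPM in libraries labelled Mcph1KO and at 74.6 and 68.2 CPM in WT at E17.5, and its averaged log2 difference was -0.01 (SE 0.10). Gm3365, a copy elsewhere on chromosome 8, had an averaged difference of -0.11 (SE 0.30). Gm10557, a copy on chromosome 18, had one of 0.74 (SE 0.27, edgeR adjusted p = 1), and it stood at 12.6 and 10 against 7.33 and 2.62 CPM at E17.5. It was also higher without overlap at P4 (6.73 and 9.4 against 2.3 and 6.63 CPM) and A18w (3.49 and 2.53 against 1.74 and 2.07). At A6w its groups overlapped.

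Markers of other cells also differed between the genotype labels, with none called. In the averaged comparison the differences were below 0 for all 5 choroid plexus markers (median -1.01), all 4 of thalamus and hypothalamus (-0.39), all 5 of oligodendrocytes (-0.27) and all 4 of red blood cells (-0.16), and above 0 for all 4 of microglia (0.10). At P4 they were below 0 for all 4 meninges markers (-0.94), all 4 of red blood cells (-1.41) and all 4 of thalamus and hypothalamus (-1.43), and at E17.5 above 0 for all 4 meninges markers (0.53). Signs changed between stages. At P4, 4 of 5 choroid plexus markers were above 0 (1.00), and all 4 of red blood cells were so at A6w (0.50) and A18w (0.58). The 2 libraries of a group could also lie far apart. The choroid plexus markers summed to 6.58 and 693 CPM in A18w WT and to 6.07 and 449 in E17.5 labelled Mcph1KO. Those of thalamus and hypothalamus summed to 236 and 42.3 CPM in P4 WT. The part of these cells in the members' differences was not tested.

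**Figure D1:**
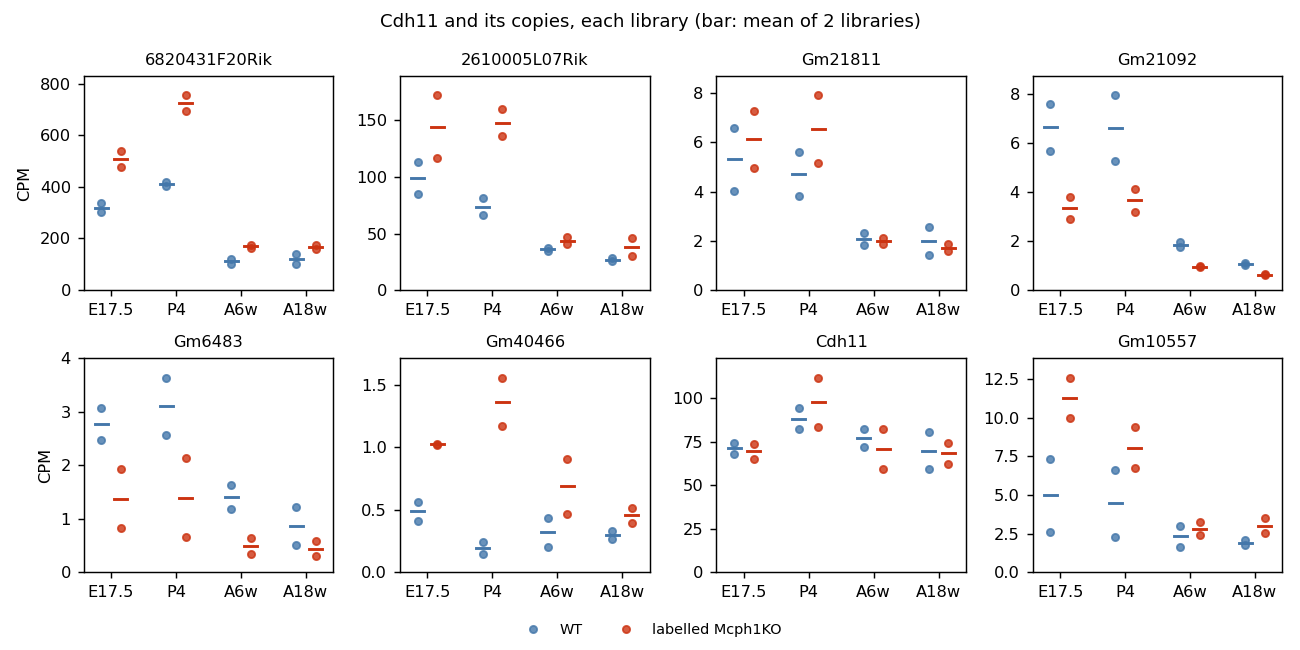
Level of the 6 Cdh11 copies near Mcph1, of Cdh11 and of the copy Gm10557 in each cortex library, in CPM on a linear axis from 0, by stage; points are libraries and bars the mean of 2. In 6820431F20Rik all 8 libraries labelled Mcph1KO lie above both WT libraries of their stage, in Gm21092 all 8 lie below, and in Cdh11 the groups overlap at every stage.

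Among the other members, Nek3, a kinase of the NIMA-related family, had the same order of libraries at all stages. Its levels in libraries labelled Mcph1KO and WT were 9.19 and 7.37 against 5.16 and 3.92 CPM at E17.5, 6.47 and 5.99 against 5.53 and 3.02 at P4, 1.71 and 1.96 against 1.34 and 0.909 at A6w, and 1.94 and 1.95 against 1.08 and 1.41 at A18w. The groups did not overlap at any stage, by a small margin at P4. The averaged log2 difference was 0.69 (SE 0.17), with an unadjusted p of 0.00146 and an adjusted p of 0.74 in edgeR, so it was not called. Nek3 (chr8:22128283-22166435) shared none of its words of 31 bases with another gene.

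Gm16425, a processed pseudogene that shares 22.1% of its words with Larp1 on chromosome 11, was low everywhere. Its counts summed to 92 in the libraries labelled Mcph1KO and to 26 in WT, so it met the minimum of 50 only through the group where it was higher, and its values are a description. It stood at 1.14 and 0.69 CPM in the P4 libraries labelled Mcph1KO and at 0.445 and 0.137 in WT. At A18w it had 14 counts in the libraries labelled Mcph1KO and 0 in WT, at least 4.45-fold higher when 3 counts over the WT group serve as the floor, which covers counting error only. Its groups did not overlap at P4, A6w and A18w and overlapped at E17.5, and edgeR did not call it (averaged adjusted p = 0.531). Gm45453, a transcript beside Mrps31, stood at 2.21 and 1.38 against 0.817 and 1.1 CPM at P4 and had an averaged log2 difference of 0.56 (SE 0.23, edgeR adjusted p = 1).

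The nearest protein-coding neighbours of Mcph1 were not called between genotypes. Angpt2, which lies inside Mcph1 on the opposite strand (chr8:18690263-18741562) and encodes angiopoietin 2, a ligand of the endothelial receptor Tek, stood at 3.12 and 5.11 CPM in the E17.5 libraries labelled Mcph1KO and at 2.81 and 5.41 in WT. Its groups overlapped at all 4 stages and its averaged log2 difference was -0.10 (SE 0.24, edgeR adjusted p = 1). The 6 other genes listed under angiopoietin signalling were Angpt1, Tek, Tie1, Ptprb and the angiopoietin-like Angptl2 and Angptl4. Of these, 0 were past the threshold in the averaged comparison. At P4 Angpt2 stood at 3.89 and 2.36 CPM against 5.57 and 3.54 (-0.54, SE 0.46, edgeR adjusted p = 1). The 7 endothelial markers summed to 179 and 223 CPM in the P4 libraries labelled Mcph1KO against 268 and 294 in WT, with 0 of 7 differences above 0 (median -0.49), and the 5 pericyte markers had 0 of 5 above 0 (median -0.34). The endothelial sums were also apart at A6w (218 and 193 against 231 and 252) and, the other way, at A18w (232 and 212 against 176 and 181). None of these markers was called, and their part in the values of Angpt2 was not tested.

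Agpat5, an acyltransferase of phospholipid synthesis 0.043 Mb from Mcph1, lay below WT at P4, A6w and A18w without overlap. At P4 it stood at 67.1 and 81.7 CPM against 88.7 and 93.6, and at A6w at 58.8 and 60.8 against 71.4 and 69.1. The averaged difference was -0.18 (SE 0.08, edgeR adjusted p = 1), and part of its exons (18.9%) overlaps an opposite-strand transcript, Gm35934, while the labels do not say whether counting used strand. Xkr5, a membrane protein of the XK-related family 0.13 Mb away, had an averaged difference of -0.63 (SE 0.36, edgeR adjusted p = 1), with levels under 2 CPM in all cortex libraries. Gm45493, a transcript within Agpat5, had one of 0.08 (SE 0.46).

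Counted over all members, 57 passed the filter on low counts and were tested, and Gm7807, 1700041G16Rik and B230112G18Rik did not pass. At single stages edgeR called 0 members at E17.5, P4, A6w and A18w, where 0% of all genes were called, while 5, 5, 7 and 2 members (8.77%, 8.77%, 12.3% and 3.51%) had an unadjusted p under 0.05, beside 1.58%, 3.74%, 3.97% and 1.7% of all genes. Of the members with such a p, 3, 4, 3 and 1 were Cdh11 copies, which share sequence. Myom2 at E17.5 and Gm16425 at A18w met the minimum of 50 only through the group where they were higher. Among the 51 tested members that are no Cdh11 copies, the shares were 3.92%, 1.96%, 7.84% and 1.96%. DESeq2 called 1 member at P4, which was 6820431F20Rik (log2 difference 0.81, adjusted p = 0.00553), and 0 at the other stages. No member was called by edgeR's test of a genotype difference that changes with stage (0 members, 0 with an unadjusted p under 0.05, 0% called among all genes and 2.27% of them with an unadjusted p under 0.05).

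In the averaged comparison 11 of the 57 members (19.3%) had an unadjusted p under 0.05, beside 2.21% of all genes. Of these 11, Gm6483, Gm40466, 6820431F20Rik, 2610005L07Rik and Gm21092 were Cdh11 copies, and the others were Myom2, Gm16425, Nek3, Gm45453, Smim19 and Sfrp1. Gm16425 and Myom2 (summed counts of 48 in WT and 91 in libraries labelled Mcph1KO) met the minimum only through the group where they were higher, as did Gm21182 and Gm15816, and Gm21119 met it only through WT. Of the 52 tested members with at least 50 counts in both genotypes, 9 had such a p, among them all of the copies just named. Among the 51 tested members that are no Cdh11 copies, 6 (11.8%) had such a p, Myom2 and Gm16425 included. Since the choice of members favours genes that are high in a group, the share of all genes is no fair measure for the low-count members. Groups that did not overlap at all 4 stages were found with libraries labelled Mcph1KO higher in 4 members (7.02%, beside 0.109% of all genes) and lower in 1 member, Gm21092 (1.75%, beside 0.0417%). The 4 were Gm40466, 6820431F20Rik, 2610005L07Rik and Nek3. The copies share sequence, so they are not separate observations.

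At single stages, groups that did not overlap were counted with libraries labelled Mcph1KO higher in 10, 16, 14 and 11 members and lower in 6, 12, 12 and 7 members, at E17.5, P4, A6w and A18w in turn. Of the 57 members tested, 10 were higher at E17.5, the smallest share. The share higher was 28.1% at P4, 24.6% at A6w and 19.3% at A18w. The share lower was 10.5%, 21.1%, 21.1% and 12.3% at the 4 stages in turn. Over all genes, 9.83%, 15%, 16.7% and 10.4% were higher without overlap at these stages, and 10.3%, 14.6%, 15.4% and 12.4% were lower. A difference of the same sign at all 4 stages was found in 16 members (28.1%, beside 9.63% of all genes), 9 of them higher and 7 lower. They included the Cdh11 copies Gm6483, Gm40466, 6820431F20Rik, 2610005L07Rik and Gm21092, which share sequence. Myom2, Gm16425 and Gm21119, also among them, met the minimum only through the genotype where they were higher. The share of all genes is therefore no fair measure here either.

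Smim19, a small membrane protein, and Sfrp1 were among the protein-coding members with a low unadjusted p. Smim19 stood at 17.9 and 16.7 CPM in the P4 libraries labelled Mcph1KO and at 12.8 and 12.6 in WT, and at 24.5 and 24.1 against 20.1 and 15.8 at A6w. The groups were apart at these stages and overlapped at E17.5 and A18w, and the averaged log2 difference was 0.25 (SE 0.09, edgeR adjusted p = 1). Sfrp1 was at 93.1 and 82.3 against 73.4 and 73.6 CPM at P4, with an averaged difference of 0.30 (SE 0.14, edgeR adjusted p = 1).

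Grouped by role, no group of members held a genotype call besides the Cdh11 copies. The median averaged log2 difference was -0.05 over the 8 members listed under neurons and synapses, -0.01 over the 9 listed under cell division, replication and repair, 0.06 over the 4 vessel and secreted factors, 0.04 over the 9 listed under transport, lipid and mitochondria and 0.00 over the 8 of protein handling and signalling.

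The size of the genotype difference did not fall steadily with distance. The median absolute averaged log2 difference was 0.404 in the 6 tested members within 1 Mb of Mcph1, 0.765 in the 8 between 1 and 2.5 Mb and 0.086 in the 43 between 2.5 and 5 Mb. Over all 57 it was 0.107, over the 51 that are no Cdh11 copies 0.0939 and over the 42 protein-coding members 0.0784. For comparison it was 0.0808 over 920 genes of the rest of chromosome 8 and 0.0763 over all genes tested. Gm16425, Gm21182 and Gm21119, which met the minimum through 1 genotype, are among the members within 2.5 Mb. The median was 0.274 over 553 tested pseudogenes of the whole genome, 0.263 over the 12 of the rest of chromosome 8 and 1.02 over the 8 in the window. The 8 between 1 and 2.5 Mb were Csmd1 (averaged difference 0.01, SE 0.13), Gm21182, Gm21119 and the Cdh11 copies Gm40466, Gm21811, 6820431F20Rik, 2610005L07Rik and Gm21092. Gm21182 and Gm21119 each shared 95.2% of their words of 31 bases with other genes, had libraries at 0 and were not called. Of the 6 within 1 Mb, Gm6483 is a copy, and Gm45493, Xkr5 and Gm16425 were under 2 CPM in all cortex libraries. The part of shared sequence and of low counts in these medians was not tested.

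The 18 tested members on the lower-coordinate side had a median absolute averaged difference of 0.0527, and 1 of them, Myom2, had an unadjusted p under 0.05. The 38 on the higher-coordinate side had a median of 0.142, and 10 of them had such a p. Of these 10, 5 were Cdh11 copies, and Gm16425, like Myom2, met the minimum through 1 genotype. Myom2, which encodes a protein of the muscle sarcomere, was below 1 CPM in every cortex library, at 0.353 and 0.547 against 0.0879 and 0.0707 CPM at E17.5.

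**Figure D2:**
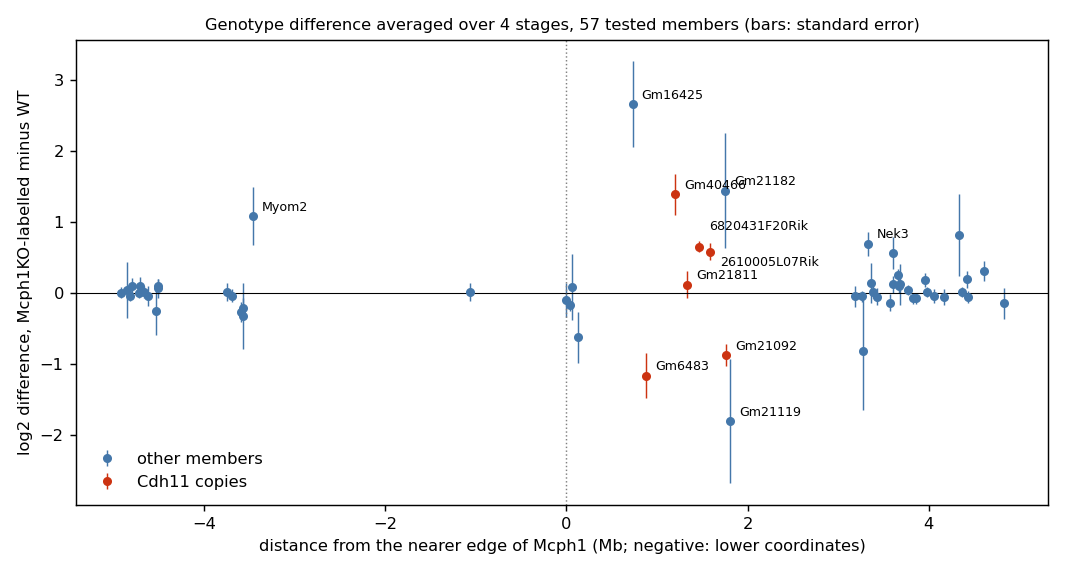
Averaged log2 difference (libraries labelled Mcph1KO minus WT) of the 57 tested members against the distance in Mb from the nearer edge of Mcph1, with lower coordinates to the left of 0 and standard errors as bars; red points are the Cdh11 copies. The widest scatter lies between 0.7 and 1.9 Mb on the higher-coordinate side, where 2 copies lie below 0 and 4 above, and most members beyond 2.5 Mb lie near 0.

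**Figure D3:**
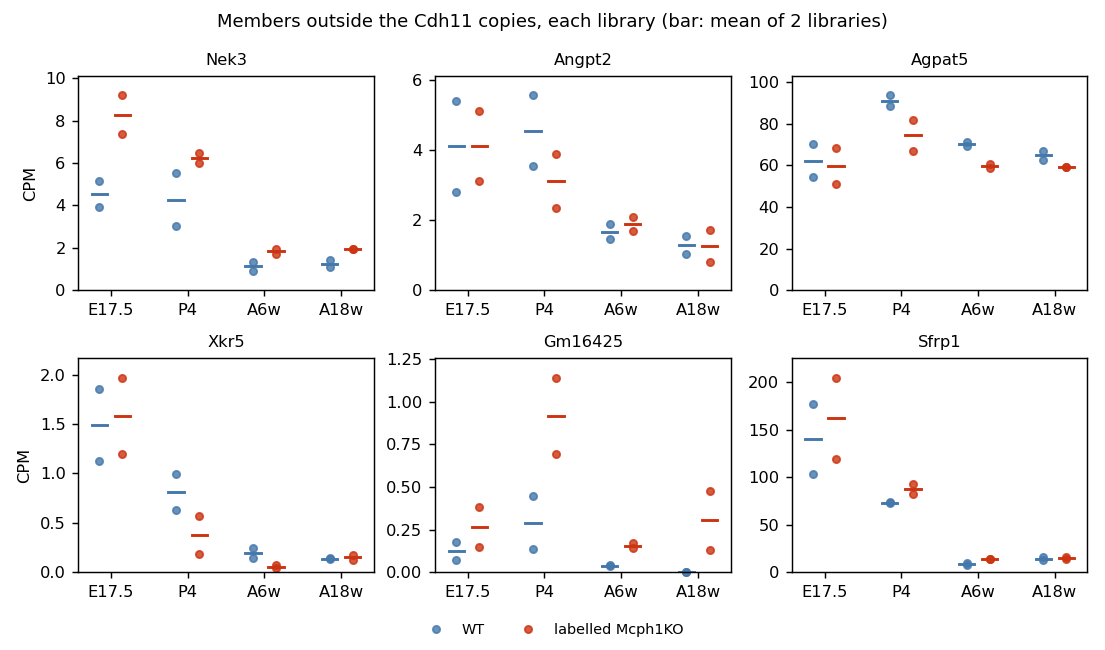
CPM of 6 members outside the Cdh11 copies in each cortex library on linear axes from 0, by stage and genotype label; points are libraries and bars the mean of 2. Nek3 libraries labelled Mcph1KO lie above both WT libraries at every stage, Angpt2 groups overlap at every stage, and Sfrp1 is lower at A6w than at E17.5 in every library.

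Many members were called between stages. From P4 to A6w in WT, 31 of 57 tested members (54.4%) were called by edgeR, beside 41.5% of all genes. Of these, 13 rose, beside 21.2% of all genes, and 18 fell, beside 20.3%. The count ran from 20 to 27 when each of the 4 WT libraries was left out in turn, and was 20 without the A6w WT library numbered 2.

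Of the 8 members listed under neurons and synapses 7 rose in that step, with a median log2 difference of 1.50 beside -0.05 over all genes. The list was made by hand, and no neuronal role is given here for several of its members, among them Tdrp, Zmat4, Arhgef10 and Kbtbd11. Without Tdrp and Zmat4, 5 of the other 6 rose. Dlgap2, a scaffold protein of the postsynaptic density, stood at 11.8 and 13.1 CPM at P4 and at 70.5 and 99.2 at A6w. That was a log2 difference of 2.76 (SE 0.25, adjusted p = 3.43e-06). Zmat4, a zinc finger protein, went from 12.7 and 7.38 to 67.4 and 51.9 CPM (2.57, SE 0.45). Ank1, an ankyrin that ties membrane proteins to the spectrin skeleton, rose by 1.59 (SE 0.23), Arhgef10 by 1.65 (SE 0.29), Kbtbd11 by 1.42 (SE 0.27) and Tdrp by 1.01 (SE 0.29). Csmd1, a transmembrane protein with complement control domains, rose by 0.93 (SE 0.27).

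Ap3m2, a subunit of the neuronal form of the AP-3 vesicle coat, went from 55.7 and 75.1 to 144 and 165 CPM, a log2 difference of 1.24 (SE 0.15). Rasa3, a GTPase-activating protein of Ras signalling, rose by 0.45 (SE 0.15) and Slc20a2, a phosphate transporter, by 0.76 (SE 0.20). Other cell types changed in the same step. The 5 oligodendrocyte markers all rose, from 83.8 and 117 CPM summed at P4 to 6882 and 3955 at A6w, the 4 microglia markers all rose, and the part of these cells in the members' changes was not tested. Of the exon bases of Kbtbd11, 24.8% overlap Gm37844 on the other strand.

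Without Upf3a, 8 members were listed under cell division, replication and repair. Of these, 6 fell in the same step, beside 20.3% of all genes, and 0 rose, beside 21.2%. Upf3a, a factor of nonsense-mediated decay that had been listed with them, rose (0.66, SE 0.25), and of 7 other genes of that pathway Upf2 and Smg5 rose and Upf3b fell. Ckap2, a spindle-associated protein of dividing cells, went from 29.3 and 16.1 CPM at E17.5 over 8.28 and 5.87 at P4 to 0.609 and 0.655 at A6w. Its log2 difference was -3.47 (SE 0.58, adjusted p = 0.000403) from P4 to A6w. Nek3 fell by 1.92 (SE 0.35) on the log2 scale, Kat6a, a histone acetyltransferase, by 1.00 (SE 0.20), Cdc16, a subunit of the anaphase-promoting complex, by 0.91 (SE 0.16) and Champ1, a protein of chromosome alignment, by 0.86 (SE 0.15). Of 13 other genes of the anaphase-promoting complex, 7 fell and 1, Anapc16, rose. Polb, the DNA polymerase of base excision repair, and Gins4 were not called.

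The promoter of Ckap2 is shown because this member had the largest called fall in that step among members with at least 1 CPM in either group. It is the 250 bases before the RefSeq start on GRCm38.p6, chr8:22185820-22186069, minus strand. Capitals mark TTTGAA and CCAAT, read on either strand, motifs that are common in promoters of cell cycle genes.
Ckap2 promoter: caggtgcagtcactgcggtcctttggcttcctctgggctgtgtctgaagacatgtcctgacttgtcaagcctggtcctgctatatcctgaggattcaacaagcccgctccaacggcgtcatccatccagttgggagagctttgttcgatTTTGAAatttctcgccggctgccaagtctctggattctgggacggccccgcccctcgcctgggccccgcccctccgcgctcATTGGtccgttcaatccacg
The sequence holds TTTGAA and, as ATTGG, the reverse of CCAAT. Among 32851 promoters of the same length, 16% held TTTGAA and 33.8% held CCAAT on either strand, so neither is rare. TTTAAA, a variant searched as well, was in 12.1% of promoters and not in this one. RefSeq promoters were matched for 13 of the 60 members.

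Vessel and secreted factors fell as well. Sfrp1, a secreted inhibitor of Wnt signalling, stood at 177 and 104 CPM at E17.5, 73.4 and 73.6 at P4, 7.75 and 10.1 at A6w and 12.7 and 15.6 at A18w in WT. It fell by 3.04 on the log2 scale (SE 0.29, adjusted p = 5.44e-06) from P4 to A6w. Angpt2 went from 5.57 and 3.54 to 1.46 and 1.89 CPM, a log2 difference of -1.44 (SE 0.47, adjusted p = 0.0271), while the summed endothelial markers stood at 268 and 294 CPM at P4 and 231 and 252 at A6w, with 2 of 7 called lower and 1 called higher. Thsd1, a thrombospondin-type membrane protein, fell by 0.80 (SE 0.25), and Plat, tissue plasminogen activator, was not called. Of the other Wnt inhibitors, Frzb and Dkk3 rose and Sfrp2 and Dkk2 fell, out of 7 tested.

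Of the 6 Cdh11 copies, 4 also fell from P4 to A6w. 6820431F20Rik went from 417 and 402 to 119 and 103 CPM in WT, a log2 difference of -1.88 (SE 0.17, adjusted p = 3.35e-06). 2610005L07Rik fell by 1.03 (SE 0.23), Gm21092 by 1.83 (SE 0.32) and Gm21811 by 1.19 (SE 0.39) on the log2 scale. Gm6483 (-1.14, SE 0.61) and Gm40466, which differed the other way (0.71, SE 0.62), were not called. Cdh11 was not called in that step (-0.20, SE 0.21). The 4 meninges markers all fell in it, from 436 and 433 CPM summed at P4 to 26.8 and 70.7 at A6w, and their part in the fall of the copies was not tested. Vdac3, a channel of the outer mitochondrial membrane, fell by 0.73 (SE 0.14).

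**Figure D4:**
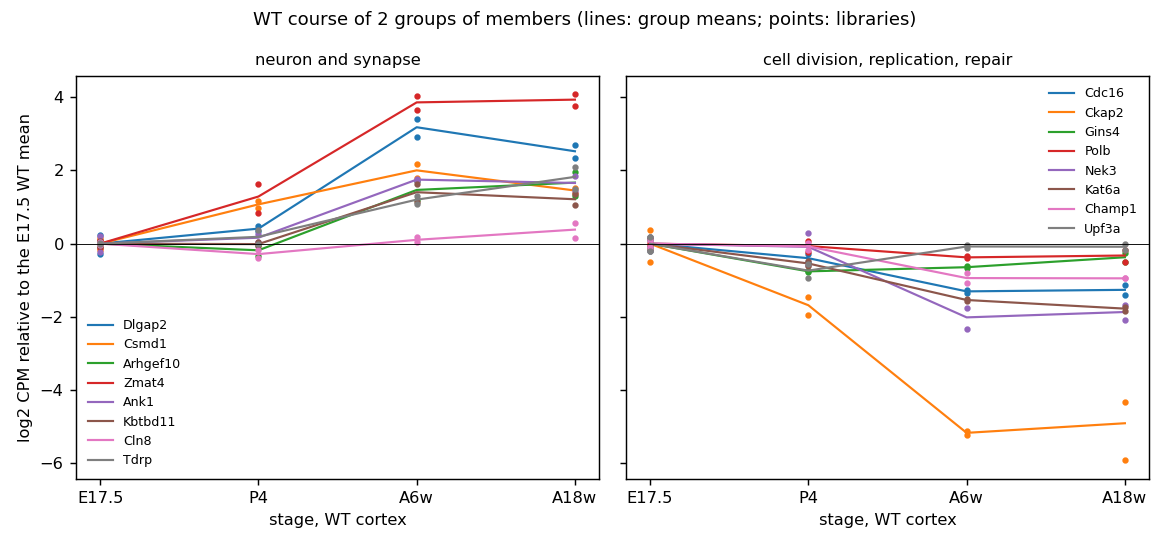
Log2 CPM of members in WT cortex relative to their E17.5 WT mean, by stage, with lines through the group means and points for libraries; members listed under neurons and synapses on the left and under cell division, replication and repair (Upf3a included) on the right (Nek5 is left out because 1 library was at 0). Zmat4 and Dlgap2 rise most on the left, and Ckap2 falls most on the right.

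From E17.5 to P4, 7 of 57 members (12.3%) were called by edgeR, beside 18.2% of all genes. Csmd1 went from 18.9 and 23.7 to 47.4 and 42.2 CPM (1.07, SE 0.27), and Agpat5 (0.55, SE 0.17) and Ap3m2 (0.50, SE 0.15) also rose, 3 members beside 9.65% of all genes. Ckap2 (-1.68, SE 0.49), Erich1 (-0.99, SE 0.27), Sfrp1 (-0.93, SE 0.27) and Gins4 (-0.75, SE 0.24), a subunit of the replicative helicase complex, fell, 4 members beside 8.59%. Without the E17.5 WT library numbered 1 or the P4 WT library numbered 2 edgeR called 0 members, and 3 without the P4 WT library numbered 1. Of the other GINS genes, Gins1 fell and Gins2 and Gins3 were not called. The 23 members called in no step included Golga7, a Golgi protein, at 114 and 87.2 CPM at E17.5 and 111 and 97.5 at A18w in WT, and Fbxo25, a substrate receptor of a ubiquitin ligase, at 60.1 and 60.9 and at 51.7 and 60.4. From A6w to A18w edgeR called 0 members, beside 0.026% of all genes (0.0104% higher and 0.0156% lower). In all, 34 of 57 members (59.6%) were called in at least 1 of the 3 steps, beside 49.4% of all genes.

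In R1 stem cells the members stood at other levels than in E17.5 WT cortex. Of 54 members tested over the 10 wild-type libraries, 37 (68.5%) were called, beside 68% of all genes. Higher in stem cells were 24, beside 32.7% of all genes, and lower were 13, beside 35.3%. The count ran from 28 (without the E17.5 WT library numbered 2) to 36 when each library was left out in turn.

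Without Coprs and Erich1, 7 of 7 members listed under transport, lipid and mitochondria were higher in stem cells. Their median log2 difference was 2.31, beside -0.06 over all genes. Coprs, which binds histones, and Erich1 had been listed with them and were also higher (1.69, SE 0.23, and 1.28, SE 0.29). Mrps31, a protein of the mitochondrial ribosome, averaged 103 CPM in stem cells (SD 6.14, n = 2) and 12.3 in E17.5 WT cortex (SD 1.23, n = 2), a log2 difference of 3.06 (SE 0.19). Slc25a15, the mitochondrial ornithine carrier, was higher by 2.92 (SE 0.24), Slc20a2 by 2.31 (SE 0.19) and Xkr5 by 3.40 (SE 0.43).

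Of the cell division group 5 of 8 were higher, and Upf3a was higher too (0.78, SE 0.27). Ckap2 averaged 236 against 21.9 CPM (3.42, SE 0.41) and Gins4 114 against 18.9 (2.59, SE 0.22), and Kat6a was lower (-1.60, SE 0.25). All 3 other GINS genes were higher. Mcph1 itself averaged 82.3 CPM in stem cells and 10.9 in E17.5 WT cortex (2.92, SE 0.21).

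The members listed under neurons and synapses were divided, with 4 higher and 4 lower, or 2 and 4 without Tdrp and Zmat4. Csmd1 was at 0.265 and 0.122 CPM in stem cells (-6.71, SE 0.34), Dlgap2 lower by a log2 difference of -4.72 (SE 0.43) and Ank1 by -4.63 (SE 0.29). Plat was lower as well (-4.58, SE 0.26), as was Angpt2 (-3.36, SE 0.54), and 6 of 7 endothelial markers were lower.

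6820431F20Rik was not called between stem cells and cortex, at 298 and 550 CPM in stem cells (0.46, SE 0.28). Cdh11 was at 0.177 and 0.0814 CPM in the same cells, from 4 and 2 counts. 2610005L07Rik was at 75.2 and 96.4 CPM there and was not called either, and Gm21092 was lower than in cortex (-1.64, SE 0.41, adjusted p = 0.00478).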

How the data were processed

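The authors deposited 1 table of estimated counts for 18 libraries, with a row for each gene. The submitters' processing notes name FastQC, Trimmomatic 0.39, Salmon 1.4.0 and the builds GRCm38.p6 and mm10. The counts are whole numbers as deposited, so no rounding was applied. An estimated count divides a read that fits several genes among them. The strand setting is not given in the sources used here. Of the gene IDs, 54107 matched the GENCODE M21 annotation by ID without version and 174 did not.

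edgeR 4.0.16 (R 4.3.3) fitted all genes of the 16 cortex libraries together: filterByExpr (minimum count 10, minimum total 15), TMM factors, 1 mean per group, quasi-likelihood tests, Benjamini-Hochberg adjustment over 19199 genes, and an adjusted p under 0.05 as the threshold of a call. The residual degrees of freedom were 8. For stem cells, the 10 WT libraries were fitted alone (19466 genes). CPM use the effective library sizes of these fits. The standard error is the log2 difference divided by the root of the test statistic. On simulated counts the averaged comparison recovered 70% of 2-fold and 93% of 4-fold changes, and that at E17.5 27% and 62%. Alternatives were DESeq2 1.42.0, RLE size factors, no filter, other sets of libraries, a replicate block and each library left out in turn. Leaving out both E17.5 libraries numbered 1 was chosen after seeing the data.

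Shared words of 31 bases were counted over GENCODE M21 transcripts, and copies were aligned to Cdh11 with Biopython 1.88. The 2 libraries of each group differed beyond sampling noise (chi-square per degree of freedom 31.26 or more).

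Named genes followed a rule: Mcph1, members called between genotypes, tested members within 1 Mb, the up to 4 largest differences per genotype comparison without overlap and with at least 1 CPM, up to 4 members of highest level per functional group, the 5 largest called rises and falls per stage step and in stem cells, and the 2 genes on either side of the minimum. Smim19, Tdrp, Gm37844, Nek5, Upf3a and the other genes named beside these were chosen after their values were seen. Counts without Tdrp, Zmat4, Upf3a, Coprs and Erich1, and by genotype sum, were added after seeing the data. The members and lists were chosen with earlier results of these data known.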

Additional observations from a re-analysis of the deposited data

How the results depend on the processing

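Of the counts of called members, the genotype difference at P4 gave 1 with DESeq2 and 2 with no filter on low counts. The averaged genotype difference gave 1 member in edgeR, 3 with DESeq2, 5 with no filter, 0 with all 18 libraries and 0 with both E17.5 libraries numbered 1 left out. Over all genes the averaged calls were 10, 32, 124, 7 and 1 under the same settings. WT P4 against E17.5 gave 2 with only the 4 libraries compared, 0 with both E17.5 libraries numbered 1 left out and 0 to 6 with each library left out. Over all genes that step gave 3502 calls, 1958 with only the 4 libraries, 684 with both E17.5 libraries numbered 1 left out, 405 without the E17.5 WT library numbered 1 and 1065 without the P4 WT library numbered 2, and the P4 genotype difference gave 0 calls, 22 with DESeq2 and 225 with no filter. WT A6w against P4 gave 20 to 27 with each library left out. The median absolute averaged difference was 0.404 within 1 Mb and 0.639 within 2.5 Mb, and 0.107 over all tested members. The members within 2.5 Mb include the 6 Cdh11 copies and Gm16425, Gm21182 and Gm21119, which met the minimum through 1 genotype. Over the 51 tested members that are no copies it was 0.0939, and over the 42 protein-coding members 0.0784.

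Gm45493 changed sign with the replicate block (-0.04) and with 1 library left out (-0.35 to 0.28), and Angpt2 with 1 library left out (-0.26 to 0.04). The causes of these changes were not tested. Same-numbered libraries of the 2 genotypes deviated together with correlations of 0.478 at E17.5, 0.209 at P4, 0.0829 at A6w and 0.295 at A18w. The labels give no shared source for a number, and the A6w value was too low to take the numbers as pairs at every stage, so whether some stages are paired is not settled. Those of successive WT stages gave -0.0151 to 0.14. With the replicate block the averaged comparison still called 1 member, 6820431F20Rik (0.65, adjusted p = 0.0109), and 16 genes in all, and the first 2 WT steps called 8 and 33 members. With 2 libraries per group, low-count members such as Gm16425 and Gm40466 are limited by depth, and a 2-fold change at a single stage would often be missed.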
